A study of Mus musculus with 36 samples.

Results

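Interferon-stimulated genes are the genes that cells switch on when an interferon binds its receptor. A set of 34 such genes was looked up by gene symbol in the deposited table, and all 34 were among its 25626 listed genes. The table covers whole hearts of 36 mice in 6 groups of 6, all profiled by RNA-seq. The groups were cSirt4-Tg mice with transverse aortic constriction (TAC) and MitoQ (Tg-TAC-MQ), control mice with TAC and MitoQ (Con-TAC-MQ), cSirt4-Tg mice with TAC and vehicle (Tg-TAC), control mice with TAC and vehicle (Con-TAC), cSirt4-Tg mice with sham surgery and vehicle (Tg-Sham) and control mice with sham surgery and vehicle (Con-Sham). TAC constricts the aorta so that the left ventricle pumps against a higher pressure, MitoQ is an antioxidant that accumulates in mitochondria, and Sirt4 is a mitochondrial sirtuin. The labels used here give neither the promoter of the transgene nor the age and strain of the mice, the dose of MitoQ or the time after surgery. Each value is a normalized read count, with 1 library per heart.

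Type I interferons act through a receptor that carries the kinases Jak1 and Tyk2, and signalling from it leads to a transcription factor complex with Stat2 and Irf9 that binds interferon-stimulated response elements in promoters. Interferon gamma acts through a separate receptor and on gamma-activated sites, and its best known targets in mice are guanylate-binding proteins, immunity-related GTPases and antigen-processing genes. Cardiac macrophages, fibroblasts, endothelial cells and cardiomyocytes can all respond to interferon, so whole-heart values do not show which cells carried the transcripts.

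The members fall into 8 roles. Irf1, Irf7, Irf9 and Stat2 are transcription factors of the response, and Ifih1, Dhx58 and Zbp1 sense foreign or misplaced nucleic acid. Ifit1, Ifit2, Ifit3 and Ifit3b bind viral RNA or support that binding. Oas1a, Oas2 and Oas3 belong to the oligoadenylate synthetases that feed RNase L, with the related Oasl1 and Oasl2. Mx1 and Mx2 are dynamin-like GTPases that block viruses, and Gbp2, Gbp3, Gbp4 and Gbp7 are guanylate-binding proteins that attack the vacuoles of intracellular microbes. Isg15 is a ubiquitin-like modifier, Usp18 removes it from proteins and restrains the receptor, and Trim25 is a ubiquitin ligase that can activate the RNA sensor Rigi. The other effectors are Rsad2, Cmpk2, Bst2, Rtp4, Xaf1, Parp14, Ifi35, Ifi44 and Ifi27l2a.

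Promoters are shown for the called members that have a window in the RefSeq table, to look for the letters of the response element. The windows run from 250 bases before to 50 after the gene start, in the coordinates of GRCm38.p6, which is not the build of the expression table. Capitals mark matches to GAAANNGAA on either strand, the core of an interferon-stimulated response element, whose reverse complement reads TTCNNTTTC.
Oas3 (chr5:120777610-120777909, minus strand): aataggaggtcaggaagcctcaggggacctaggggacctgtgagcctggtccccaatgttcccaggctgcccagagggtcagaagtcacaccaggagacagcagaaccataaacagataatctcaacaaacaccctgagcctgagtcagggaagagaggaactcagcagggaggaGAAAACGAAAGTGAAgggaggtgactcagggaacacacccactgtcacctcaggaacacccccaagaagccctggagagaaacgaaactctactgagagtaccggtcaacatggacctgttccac
Ifit3 (chr19:34583279-34583578, plus strand): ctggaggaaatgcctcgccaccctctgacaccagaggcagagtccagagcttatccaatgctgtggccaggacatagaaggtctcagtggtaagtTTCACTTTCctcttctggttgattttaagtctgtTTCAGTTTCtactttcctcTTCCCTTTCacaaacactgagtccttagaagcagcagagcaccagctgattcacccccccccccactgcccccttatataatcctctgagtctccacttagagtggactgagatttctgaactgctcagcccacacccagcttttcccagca
Trim25 (chr11:88999153-88999452, plus strand): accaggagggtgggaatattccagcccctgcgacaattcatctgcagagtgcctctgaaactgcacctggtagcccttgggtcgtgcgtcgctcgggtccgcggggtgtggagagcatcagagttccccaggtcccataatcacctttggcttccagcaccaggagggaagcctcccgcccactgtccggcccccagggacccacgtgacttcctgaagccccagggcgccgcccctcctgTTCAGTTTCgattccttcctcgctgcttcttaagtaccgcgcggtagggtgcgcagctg
Oasl1 (chr5:114922990-114923289, plus strand): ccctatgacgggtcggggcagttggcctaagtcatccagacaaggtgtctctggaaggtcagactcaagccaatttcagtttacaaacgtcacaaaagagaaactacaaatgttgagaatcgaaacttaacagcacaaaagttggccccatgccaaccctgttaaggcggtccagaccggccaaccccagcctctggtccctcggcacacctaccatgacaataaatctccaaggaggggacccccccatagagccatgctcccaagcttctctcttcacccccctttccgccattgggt
The Oas3 window held 2 overlapping matches that begin 75 and 69 bases before the start. The Ifit3 window held 3 matches at 155, 121 and 102 bases before the start, Trim25 held 1 match at 9 bases before the start, and Oasl1 had none in these letters. Of the 24 members with a window, 15 held at least 1 match, against 9.76% of 27025 genes with a window of the same length. The gamma-activated site TTCNNNGAA, which reads the same on both strands, was present for 6 of the 24 members, against 9.55% of all genes. No window was found for Dhx58, Zbp1, Oas2, Mx1, Mx2, Gbp4, Usp18, Rtp4, Parp14 and Ifi27l2a. A match describes the letters and was not tested as a site.

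Several members lie beside each other in the genome (mm39). Ifit2, Ifit3, Ifit3b and Ifit1 follow one another on chromosome 19 with gaps of 7.11, 19.2 and 27.5 kb, and Gbp7, Gbp3 and Gbp2 follow one another on chromosome 3 with gaps of 9.88 and 47.4 kb. Irf7 overlaps Phrf1 and Rtp4 overlaps Masp1 on the opposite strand, and Irf9 overlaps Rnf31 and Gbp4 overlaps Gbp9 on the same strand. Each of these 4 partners averaged more reads than the member. The sources used here do not say whether strand was used in counting or how reads of near-identical copies, such as Ifit3 and Ifit3b or the guanylate-binding proteins, were treated, so the values of these members are less certain.

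The libraries held 14.8 to 60.0 M assigned reads, and every member passed the filter on low values. Sirt4 ranged from 311.3 to 472.9 normalized counts in the 3 groups labelled cSirt4-Tg and from 253.0 to 606.2 in the 3 control groups, so it did not mark the genotype and the group names are those of the labels. The names of the libraries carry a number of unstated meaning, which was 7 to 14 in Tg-TAC 1 to 5, Con-TAC 1 to 5, Tg-Sham 1 to 3 and Con-Sham 1 to 3. Every MitoQ library, as well as the single vehicle library Con-TAC 6, carried 20 or 21, while Tg-TAC 6 and replicates 4 to 6 of both sham groups carried 29 to 31. Library Tg-TAC 4 had the lowest depth, and Rn18s-rs5, a ribosomal RNA locus, took 11.8% of its reads, 5.36% in Tg-TAC 6, 2.27% in Con-TAC 6 and 11.01% in Con-Sham 6. Cardiomyocyte markers were abundant in every library, with a lowest sum of 1003420 normalized counts over 8 genes, in Tg-TAC 4.

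The main feature of the members was not a group but 2 single control hearts. Con-TAC 6 had the highest value of its group in 33 of the 34 members, where 30.4% of all tested genes had theirs in that heart. Con-Sham 6 had the highest value of its group in 34 of 34 members, against 16.5% of all tested genes. The mean log2(value + 1) of the 34 members was 9.65 in Con-TAC 6, where the remaining 5 hearts of that group had 7.37 to 7.55. It was 8.53 in Con-Sham 6, where the remaining 5 had 6.96 to 7.44. These are single hearts, so no test applies to them, and the counts of called members that turn on them are given below with and without them.

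**Figure D1:**
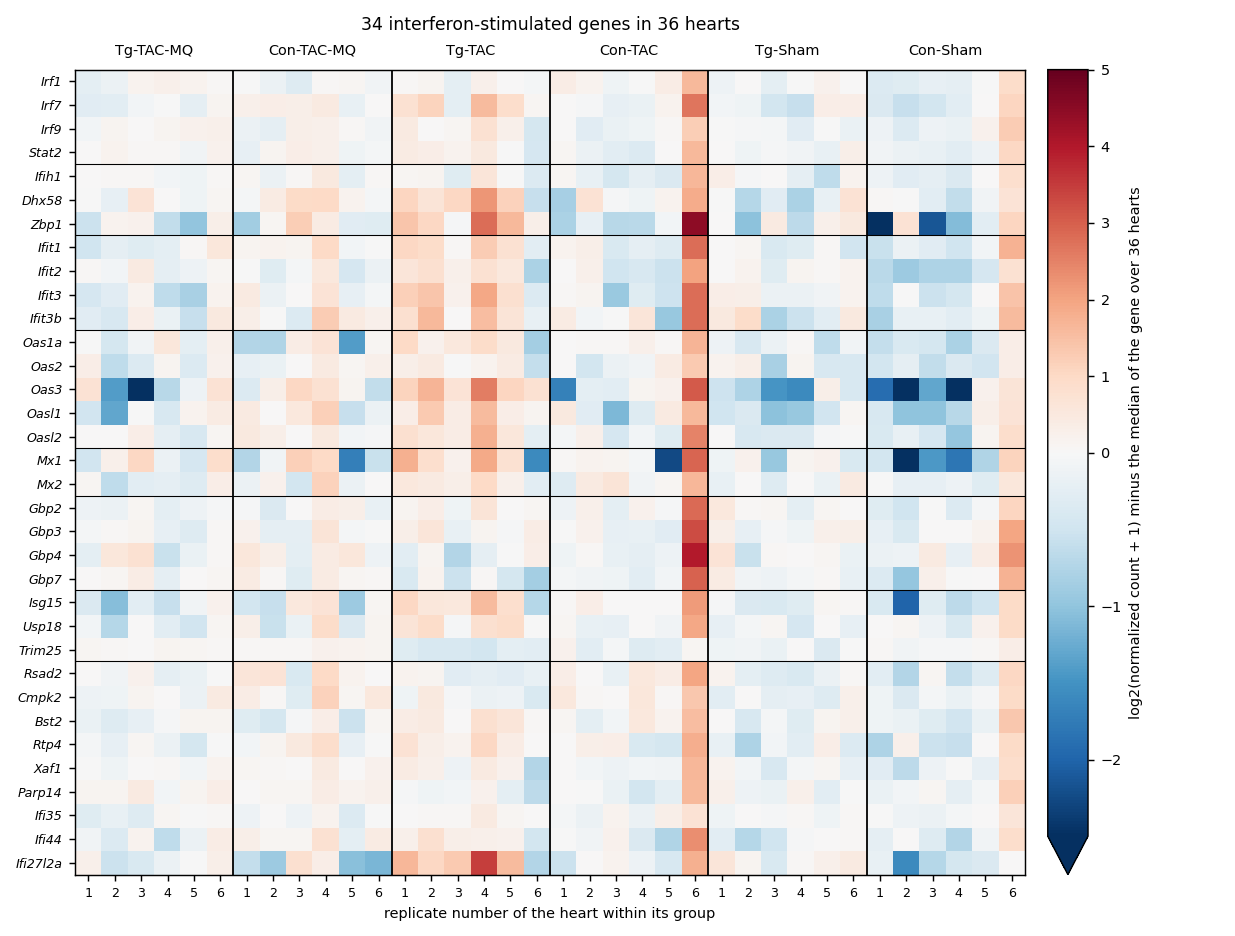
Each column is a heart and each row a member, grouped by role. Colour is log2(normalized count + 1) minus the median of that gene over the 36 hearts, with the deepest blue also standing for lower values. Con-TAC 6 and Con-Sham 6 are high in nearly every row, and Tg-TAC 4 is high in many but not all rows.

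**Figure D2:**
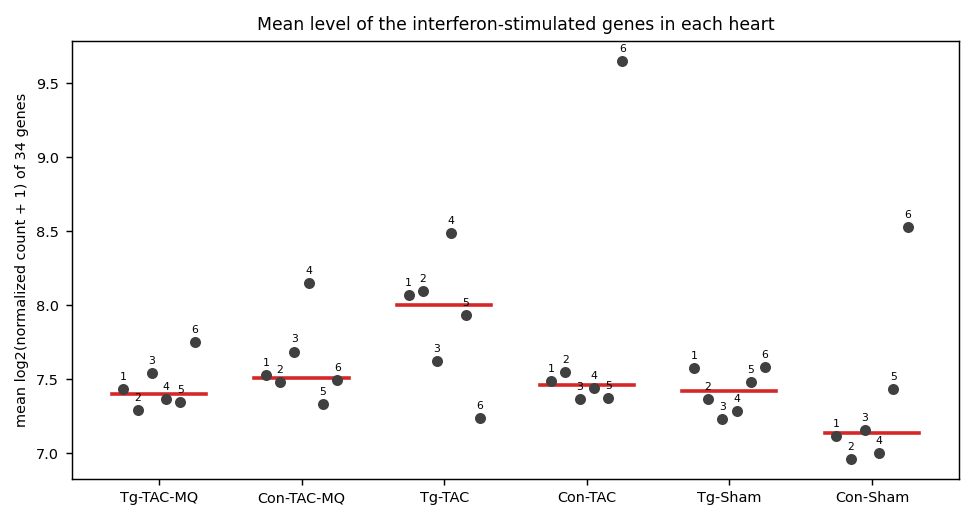
The vertical axis is the mean log2(normalized count + 1) over the 34 members, each point is a heart with its replicate number, and the red line is the median of the group. Con-TAC 6 stands at 9.65 and Con-Sham 6 at 8.53, and the Tg-TAC median of 8.00 lies above the medians of the other 5 groups.

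In Con-TAC 6 the 2 largest ratios were those of Zbp1 and Gbp4. Zbp1 (mm39 chromosome 2, 173048405 to 173060716), a sensor that can trigger necroptosis, had 564.6 normalized counts in Con-TAC 6 against a median of 14.7 in the other 5 Con-TAC hearts, a ratio of 38.4. Gbp4 (mm39 chromosome 5, 105263633 to 105287452) had 5699 normalized counts against 333.2, a ratio of 17.1. Gbp3 reached 2705, a ratio of 10.8, Gbp7 had 3731 against 447.2 and Gbp2 had 3151 against 429.7. All 4 guanylate-binding proteins were thus at least 7.33 times the median of the other hearts. The 4 Ifit genes had ratios of 5.41 to 8.67, and Irf7, the amplifier of the response, had 6.57. Oas3 had a ratio of 11.1 and Mx1 of 7.56. The smallest ratios were those of Trim25 with 1.27 and Ifi35 with 1.71, and the remaining members had at least 2.45. Over the members the median ratio was 3.80, and 32 of 34 were at least 2 times the median of the other hearts, against 10.6% of all tested genes.

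In Con-Sham 6 the ratios were smaller for 31 of the 34 members, and larger for Bst2, Irf9 and Trim25. Gbp4 had 1713 normalized counts in Con-Sham 6 against a median of 334.4 in the other 5 Con-Sham hearts, a ratio of 5.12, and Gbp3 had 1105 against 286.5. Ifit1, which binds RNA that lacks a cap methylation, had 509.3 against 124.0, a ratio of 4.11. Zbp1 had 52.2 against 10.9, and Stat2 1069 against 475.3. The highest ratio, 8.98 for Oas3, set 13.7 normalized counts against 1.53 and therefore rested on few reads. The median ratio over the members was 2.57, and 26 of 34 were at least 2 times the median of the other hearts, against 3.89% of all tested genes. Ifi27l2a, which was 3.71 times the median of the other hearts in Con-TAC 6, had a ratio of 1.39 in Con-Sham 6.

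**Figure D3:**
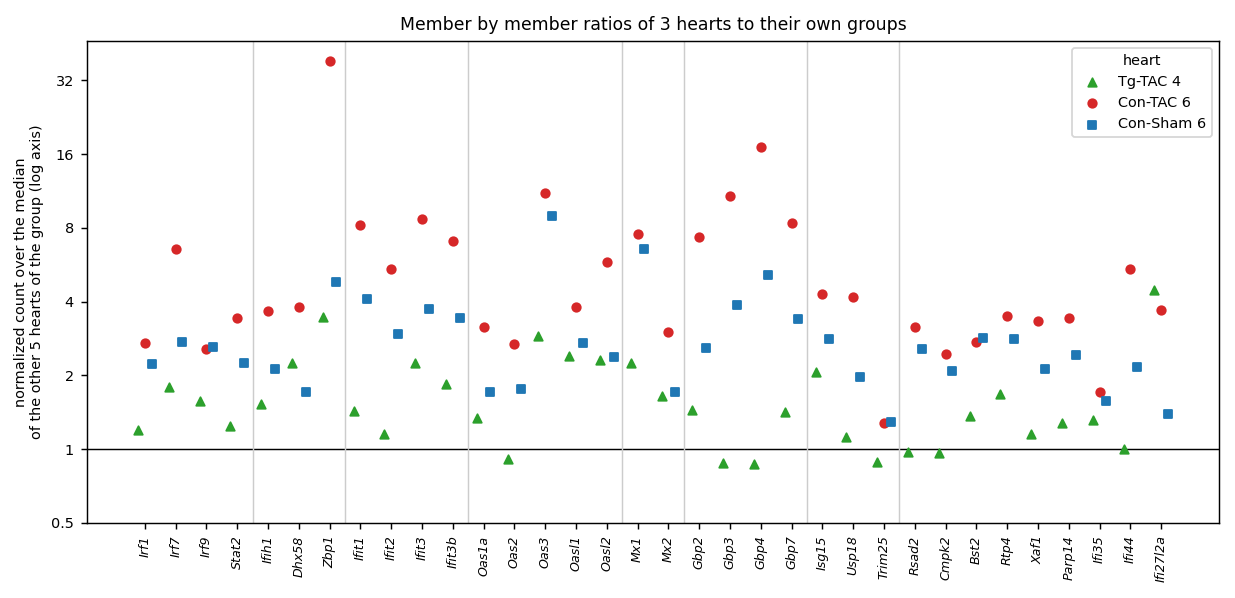
Points are the normalized count of each member in Tg-TAC 4, Con-TAC 6 or Con-Sham 6 over the median of the other 5 hearts of its group, on a log axis, with members in order of role. The guanylate-binding proteins are among the highest ratios in Con-TAC 6, between 7.33 and 17.1, and lie between 0.868 and 1.44 in Tg-TAC 4. Members of other roles, such as Oas2 (0.912) and Rsad2 (0.977), are also close to 1 in Tg-TAC 4.

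Genes tied to interferon gamma that are not members stood out in the same 2 hearts. All 25 tested genes of a list of immunity-related GTPases, further guanylate-binding proteins, antigen-processing genes and chemokines had the highest value of the group in Con-TAC 6, with a median ratio of 8.96, and 23 of 25 did in Con-Sham 6, with a median ratio of 3.35. Igtp, an immunity-related GTPase, had 7120 normalized counts in Con-Sham 6 against a median of 251.4, and 4575 in Con-TAC 6 against 264.5. Irgm2, of the same family, had 8440 in Con-Sham 6 against 515.0, and 5521 in Con-TAC 6 against 415.5. Of the 25 genes, 5 had the larger value in Con-Sham 6 (Igtp, Irgm2, Iigp1, Gbp6 and Psmb10) and 20 in Con-TAC 6, among them Irgm1, Ifi47, Tgtp1 and Tgtp2 of the same GTPase family. Of the 34 members, 32 had the larger value in Con-TAC 6, the exceptions being Irf9 and Trim25. Cxcl10, a chemokine that draws T cells, had 158.9 normalized counts in Con-TAC 6 against a median of 3.90, but 13.7 against 7.51 in Con-Sham 6. These examples were chosen after their values were seen.

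The transcript of interferon gamma was not seen in Con-TAC 6 or Con-Sham 6. Ifng, the gene of interferon gamma, had 0 reads in both hearts, which allows up to 2.37 normalized counts in Con-TAC 6 and 2.75 in Con-Sham 6, and 14 reads in all over 9 of the 36 libraries. The other 9 ligand genes of the list were not among the listed genes of the table, so their values could not be given. Of the T cell markers, Cd3d had 3.16 normalized counts in Con-TAC 6 and 0 in Con-Sham 6, and Cd3e had 7.12 in Con-TAC 6 and 4.58 in Con-Sham 6. The 3 tested T and NK cell genes summed to 45.1 in Con-TAC 6, the highest of a group that began at 24.4. Of the 3, only Ccl5 was highest of the group there, with 23.7 against a median of 5.81. Cd4 was lowest of the group, with 10.3. Of the markers of plasmacytoid dendritic cells, which make type I interferon, Ccr9 was at 0 in both hearts and Siglech was 3.16 in Con-TAC 6 and 5.50 in Con-Sham 6. Klk1, the remaining gene of that list, had 511.6 normalized counts in Con-TAC 6, where the highest of the other 5 hearts had 30.2, and 2.75 in Con-Sham 6, and its highest value, 588.3, was in Tg-Sham 2. Recruited monocyte genes summed to 306.8 in Con-TAC 6, the highest of a group whose median was 95.6. All 3 tested were highest of that group. In Con-Sham 6 they summed to 84.3, the highest of a group whose median was 57.0. Only 1 of the 3 was highest there, and Ly6c2 had 1.83 against a median of 5.61. In Con-TAC 6 the 3 tested adipocyte markers and 4 of 6 fibroblast markers were also highest of the group. There, 6 of 8 cardiomyocyte and 4 of 5 erythroid markers were lowest. The macrophage markers summed to 9950, the highest of a group that began at 6546. Of these 10 markers, 3 were highest of the group there, against 30.4% of all tested genes. The median ratio of the 10 was 1.20. In Con-Sham 6, 7 of 10 macrophage markers were highest of the group, against 16.5% of all tested genes. The 10 summed to 7693 there in a group that began at 5394. The part of these differences in the values of the members was not tested.

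The Tg-TAC hearts also differed from one another. Tg-TAC 4 was highest of its group in 22 of 34 members, against 28.2% of all tested genes, and Tg-TAC 6 was lowest in 22 of 34, against 28.8% of all tested genes, with a median ratio to the other 5 of 0.601. In Tg-TAC 4, Ifi27l2a had 1893 normalized counts against a median of 423.0 in the other 5 Tg-TAC hearts, and Zbp1 had 174.3 against 50.3. The 4 guanylate-binding proteins had ratios of 0.868 for Gbp4, 0.875 for Gbp3, 1.41 for Gbp7 and 1.44 for Gbp2. In Con-TAC 6 all 4 had at least 7.33. Members of other roles were also close to 1 in Tg-TAC 4, with 0.889 for Trim25, 0.912 for Oas2, 0.965 for Cmpk2 and 0.977 for Rsad2. Of the 25 tested interferon gamma genes, 12 were highest of the group in Tg-TAC 4, with a median ratio of 1.49. Its B cell markers summed to 1694 normalized counts, where the group median was 70.05, its neutrophil markers to 707.8 against a median of 88.3 and its adipocyte markers to 8501 against a median of 27.0. In Tg-TAC 6, Ifi27l2a had 102.9 normalized counts against a median of 519.0 in the other 5 hearts and Ifit3 had 165.3 against 489.3. That heart also had the lowest value of the group in 9 of 10 macrophage markers and the highest in 7 of 8 cardiomyocyte markers. Among the MitoQ hearts, Con-TAC-MQ 4 was highest of its group in 25 of 34 members, against 10.99% of all tested genes, with ratios from 1.09 for Gbp4 to 3.10 for Mx1. In a bulk sample, fewer cells of a type and less RNA per cell cannot be told apart, and the part of these markers in the member values was not tested.

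Across the 6 groups the medians, which a single heart hardly moves, were highest in Tg-TAC for 26 of the 34 members, against 30.5% of all tested genes. The exceptions were Parp14 in Tg-TAC-MQ, Gbp4, Gbp7, Trim25 and Rsad2 in Con-TAC-MQ, and Irf1, Cmpk2 and Ifi35 in Con-TAC. Irf7 had a median of 221.1 normalized counts in Tg-TAC-MQ, 295.7 in Con-TAC-MQ, 428.4 in Tg-TAC, 242.3 in Con-TAC, 228.7 in Tg-Sham and 197.5 in Con-Sham. Its 2 highest single hearts were Con-TAC 6 with 1571 and Tg-TAC 4 with 738.3, and the ranges of all 6 groups overlapped. Zbp1 had medians of 21.8, 22.8, 57.1, 17.8, 26.8 and 15.4 in the same order of groups, with all ranges overlapping.

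Isg15 had medians of 55.1 in Tg-TAC-MQ, 61.6 in Con-TAC-MQ, 112.5 in Tg-TAC, 71.3 in Con-TAC, 61.4 in Tg-Sham and 50.5 in Con-Sham. Usp18, its protease, ran alike, with 74.4, 83.4, 137.6, 81.5, 76.3 and 87.2 in that order. For both genes the Tg-TAC median was thus the highest, and the other 5 medians lay close together. Mx1 was near the lower limit, from 0 in a Con-Sham heart to 152.6 in Con-TAC 6, so its values rest on few reads. Rsad2, which makes a chain-terminating nucleotide, and its neighbour Cmpk2, which supplies the substrate, did not share the Tg-TAC maximum. The Rsad2 medians were 349.0, 477.8, 310.8, 456.2, 313.5 and 293.0 in that order, and those of Cmpk2 were 217.6, 263.3, 206.7, 279.4, 192.9 and 212.0, so both medians were lower in Tg-TAC than in Con-TAC and lower in Tg-TAC-MQ than in Con-TAC-MQ. None of these differences was called with limma (Rsad2 in Tg-TAC minus Con-TAC, log2 -0.61, SE 0.26, limma adjusted p = 0.133), while DESeq2 called Rsad2 lower in Tg-TAC than in Con-TAC.

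To ask what TAC did in the cSirt4-Tg hearts, Tg-TAC was compared with Tg-Sham. Differences are log2 differences of log2(value + 1) from limma, with p-values adjusted over the 16275 genes tested and called under 0.05. Of the 34 members, 3 rose (7.91% of all tested genes were called higher) and 1 fell (8.77% were called lower), together 4 where 16.7% of all genes were called in either direction. The share of members called was therefore no larger than that of all genes, but 30 of 34 differences were positive, with a median of 0.43 where the median of all tested genes was -0.01. An unadjusted p under 0.05 was found for 11 members. The share of all genes with such a p is not given, here or in the comparisons below. Counts of members by unadjusted p therefore have no background to be set against.

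Oasl1 (mm39 chromosome 5, 115061299 to 115075974), which binds the message of Irf7 and limits its translation in mice, had a lowest, median and highest value of 54.3, 63.1 and 149.1 normalized counts in Tg-TAC, against 23.8, 35.1 and 53.8 in Tg-Sham. All 6 Tg-TAC hearts lay above all 6 Tg-Sham hearts, the lowest of them by little (log2 1.20, SE 0.37, limma adjusted p = 0.0250). Oas3 (mm39 chromosome 5, 120891163 to 120915726) had 14.1, 19.0 and 53.9 in Tg-TAC, against 2.12, 5.08 and 10.7 in Tg-Sham. Its groups did not overlap either, at low counts (log2 2.05, SE 0.68, limma adjusted p = 0.0353). Dhx58 (mm39 chromosome 11, 100585710 to 100595097), a regulator of the RNA sensors, had 30.1, 95.8 and 212.0 in Tg-TAC, against 25.5, 38.2 and 75.8 in Tg-Sham. It was high in Tg-TAC 4 and low in Tg-TAC 6, and the groups overlapped (log2 1.14, SE 0.36, limma adjusted p = 0.0265).

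Trim25 (mm39 chromosome 11, 88890202 to 88911119) moved the other way. It had 909.0, 986.3 and 1053 normalized counts in Tg-TAC, against 979.4, 1168 and 1257 in Tg-Sham (log2 -0.23, SE 0.078, limma adjusted p = 0.0431, lower than the Tg-Sham mean in 6 of 6 hearts). Only the lowest Tg-Sham heart lay within the Tg-TAC range. The difference was small, and the call was lost when any one of 10 of the 12 libraries was left out.

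The number of members called higher changed with the hearts that entered. None of the 34 was called higher without Tg-TAC 4, where the log2 differences of Oas3, Oasl1 and Dhx58 were 1.80, 1.02 and 0.88, and none without Tg-Sham 4, where they were 1.88, 1.12 and 1.02. Without Tg-TAC 6, 8 members were called higher (13.4% of all genes), and without each of Tg-TAC 1, 2 or 5 or Tg-Sham 2 or 3, 1 was. Within the libraries named 7 to 14, which leaves 5 Tg-TAC and 3 Tg-Sham hearts and takes out Tg-TAC 6, 15 members were called higher and none lower, against 8.51% of all genes called higher there. They were Irf7, Dhx58, Ifit1, Ifit2, Ifit3, Oas1a, Oas3, Oasl1, Oasl2, Isg15, Usp18, Bst2, Rtp4, Ifi44 and Ifi27l2a. Without Con-TAC 6 and Con-Sham 6, which enter only through the spread shared by all groups, 11 members were called higher, against 8.71% of all genes. The 2 hearts were chosen because the members were high in them, so leaving them out narrows the spread of the members in particular. That count therefore cannot be set against the share of all genes.

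The roles differed in their values. In Tg-TAC minus Tg-Sham the median log2 difference was 1.14 for the 3 nucleic acid sensors, 0.84 for the 5 oligoadenylate synthetase genes and 0.74 for the 4 Ifit genes, but -0.02 for the 4 guanylate-binding proteins. The median of the 3 sensors is the value of Dhx58 alone. Ifih1, another of the 3, had 241.6 to 461.7 in Tg-TAC and 198.0 to 380.2 in Tg-Sham, with overlap. Among members that were not called, Ifi27l2a, a small interferon-induced protein, had 102.9, 471.0 and 1893 normalized counts in Tg-TAC, against 132.0, 195.8 and 258.7 in Tg-Sham. Of its 6 Tg-TAC hearts, 5 lay above all Tg-Sham hearts and Tg-TAC 6 lay below them (log2 1.20, SE 0.43, limma adjusted p = 0.0527). Irf7 had 206.3, 428.4 and 738.3 in Tg-TAC, against 164.6, 228.7 and 308.3 in Tg-Sham, with overlap. Gbp4 had 218.6, 336.3 and 453.2 in Tg-TAC, against 247.1, 371.1 and 586.1 in Tg-Sham, and the 2 ranges largely coincided (log2 -0.15, SE 0.47).

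**Figure D4:**
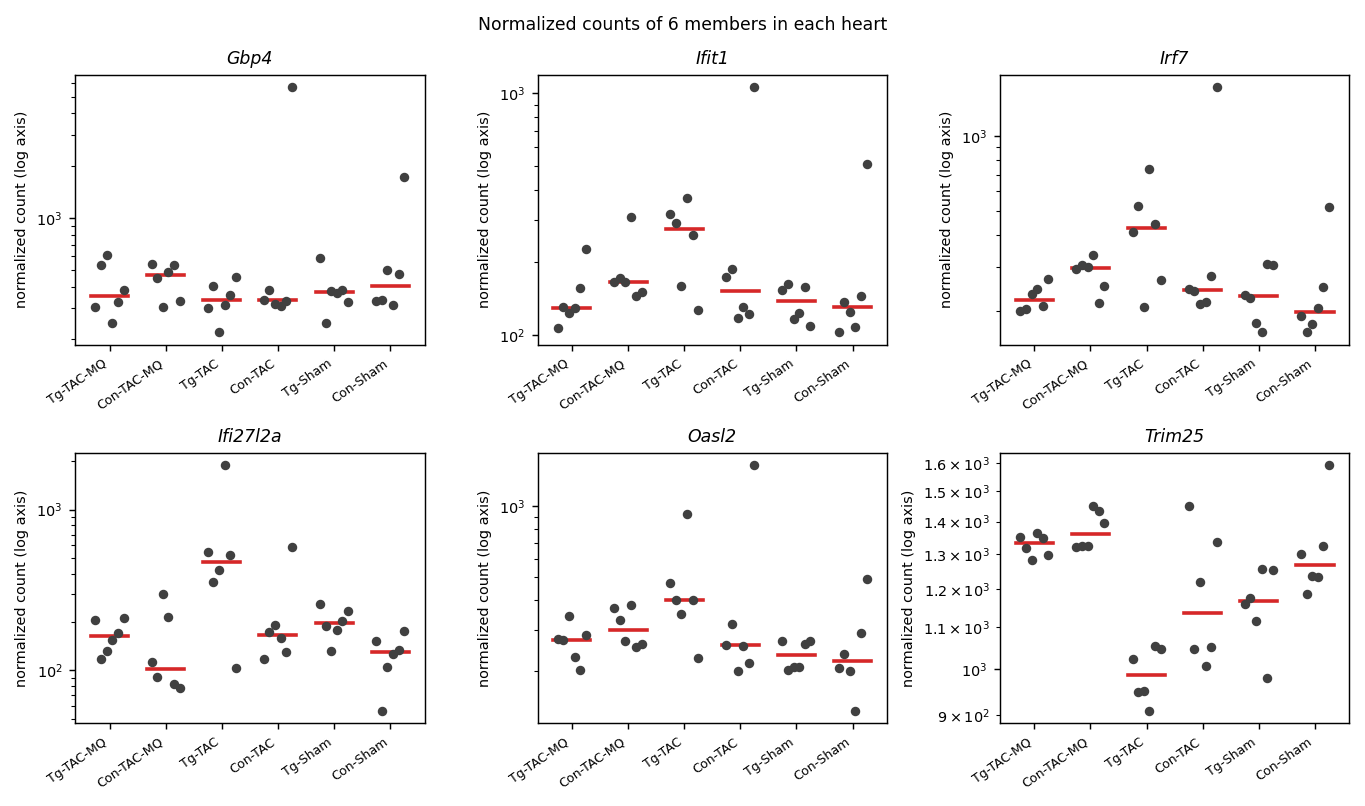
Each panel shows the normalized count of a member in each heart on a log axis, with the 6 groups from left to right and a red line at the group median. Gbp4 stays at or below 610.9 in every heart but Con-TAC 6 (5699) and Con-Sham 6 (1713), whereas Ifi27l2a is highest in Tg-TAC 4 (1893) and Trim25 has its lowest median in Tg-TAC (986.3).

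The same comparison in control hearts, Con-TAC against Con-Sham, called none of the 34 members with limma (5.30% of all genes were called in either direction). An unadjusted p under 0.05 was found for 7, edgeR called 0, and DESeq2 called 1, Zbp1. The median difference was 0.39, with 32 of 34 positive. Both groups hold 1 of the 2 high hearts, so Ifit1 ranged from 117.1 to 1066 in Con-TAC, with a median of 151.6, and from 102.5 to 509.3 in Con-Sham, with a median of 130.2. Oas3, which had the smallest p, had 1.92, 8.13 and 77.5 in Con-TAC, against 0, 2.17 and 13.7 in Con-Sham, with overlap and a limma adjusted p of 0.137 (log2 1.67, SE 0.68). Without Con-Sham 6, Irf1 alone was called higher. Erythroid markers (5 of 5) and neutrophil markers (2 of 4) were called higher in this comparison, and their part was not tested. Without Con-TAC 6 and Con-Sham 6 together, none was called (2.57% of all genes), and 28 of 34 differences were positive, with a median of 0.26. Whether TAC acted differently in the 2 genotypes was tested as an interaction, in which limma, edgeR and DESeq2 called none of the 34 (0% of all genes with limma) and no member had an unadjusted p under 0.05. For Dhx58 the interaction was 0.79, with a 95% confidence interval from -0.23 to 1.81, so differences of either kind remain possible. It was 0.96 (SE 0.46, limma adjusted p = 0.552) without Con-TAC 6 and Con-Sham 6, and 1.502 (SE 0.50, limma adjusted p = 0.311) in the libraries named 7 to 14.

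The cSirt4-Tg and control hearts were compared after sham surgery and after TAC. In Tg-Sham minus Con-Sham none of the 34 members was called with limma (0.873% of all genes), edgeR or DESeq2, and 1 had an unadjusted p under 0.05. There, 13 of 34 differences were positive, with a median of -0.03, and without Con-TAC 6 and Con-Sham 6, 30 of 34 were positive, with a median of 0.18 and again no call (1.03% of all genes). The direction of the members as a whole therefore turned with that 1 Con-Sham heart. In Tg-Sham, the 6 hearts were alike, with a mean log2(value + 1) of the members from 7.23 to 7.58.

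After TAC, Tg-TAC minus Con-TAC called no member higher with limma (3.19% of all genes were called higher) and 1 lower (3.29% were called lower), where 6.48% of all genes were called in either direction. An unadjusted p under 0.05 was found for 4 members, edgeR called Ifi27l2a higher and Trim25 lower, and DESeq2 called Ifi27l2a higher and Gbp7, Trim25 and Rsad2 lower. Trim25 had 909.0, 986.3 and 1053 normalized counts in Tg-TAC, against 1008, 1136 and 1452 in Con-TAC. All Tg-TAC hearts lay below the Con-TAC mean, though the ranges overlapped (log2 -0.25, SE 0.078, limma adjusted p = 0.0461), and the call was lost when any one of 9 of the 12 libraries was left out. Over the members, 20 of 34 differences were positive, with a median of 0.03. These values include Con-TAC 6, which sets the upper end of every other member in Con-TAC.

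Within the libraries named 7 to 14, 5 Tg-TAC against 5 Con-TAC hearts, 15 members were called higher and none lower (12.9% of all genes were called higher). That set leaves out Tg-TAC 6, lowest of its group in 22 of 34 members, and Con-TAC 6, highest of its group in 33 of 34. Leaving out either heart moves most members towards a higher Tg-TAC value. Ifi27l2a (mm39 chromosome 12, 103408426 to 103409939) had 353.2, 519.0 and 1893 in these Tg-TAC hearts, against 118.3, 157.9 and 192.2 in these Con-TAC hearts. The groups did not overlap (log2 1.99, SE 0.38, limma adjusted p = 0.00167). Ifit3 (mm39 chromosome 19, 34560931 to 34566131), the partner of Ifit1, had 244.9, 489.3 and 817.4 in Tg-TAC, against 111.2, 171.0 and 234.6 in Con-TAC, again without overlap (log2 1.41, SE 0.27, limma adjusted p = 0.00136). Oas3 had 14.1, 19.5 and 53.9 in Tg-TAC, against 1.92, 6.97 and 9.87 in Con-TAC, and Isg15 had 98.9, 122.9 and 210.2 in Tg-TAC, against 70.2, 70.4 and 87.1 in Con-TAC. Neither gene overlapped between these hearts, and both were called. In Tg-TAC 6, left out here, Ifi27l2a had 102.9 and Isg15 had 41.6, below all of these Con-TAC hearts. Ifit3 had 165.3 there, within their range, and Oas3 had 15.0, above it.

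Stat2 and Irf9, of the type I complex, were called in these libraries too, as were Irf7, Dhx58, Zbp1, Ifit1, Ifit2, Oas1a, Oasl2, Usp18 and Ifi44. Stat2 had 520.3, 662.8 and 741.9 in Tg-TAC, against 411.7, 473.9 and 556.9 in Con-TAC, where only Tg-TAC 5 lay within the Con-TAC range (log2 0.41, SE 0.11, limma adjusted p = 0.00820). Irf1 and the 4 guanylate-binding proteins were not called. Gbp4 had 218.6, 312.6 and 402.5 in Tg-TAC, against 311.1, 333.2 and 381.0 in Con-TAC, so the Con-TAC range lay within the Tg-TAC range. Without Con-TAC 6 alone, Irf7, Dhx58, Zbp1, Ifit3, Oasl2 and Ifi27l2a were called higher (8.37% of all genes). Without Con-TAC 6 and Con-Sham 6, 9 members were called higher (8.15% of all genes). Both fits leave out hearts picked out above for high member values, so these counts cannot be set against the shares of all genes. Without Tg-TAC 6, 2 members were called higher (1790 of the 16275 genes), and without those 2 control hearts and Tg-TAC 4 as well, Ifit3 and Ifi27l2a were called.

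Macrophage markers differed between the same groups. Their 10 genes summed to 7246, 14817 and 18492 normalized counts (lowest, median, highest) in Tg-TAC, against 6546, 8425 and 9950 in Con-TAC. Of the 10, 4 were called higher, where 3.19% of all genes were. The 6 fibroblast markers summed to 26941, 62260 and 72944 in Tg-TAC, against 21655, 28954 and 45530 in Con-TAC, and 2 were called higher. Of 8 cardiomyocyte markers, 1 was called lower, where 3.29% of all genes were. The macrophage markers summed to 10018, 12156 and 15011 in Tg-Sham, against 5394, 6301 and 7693 in Con-Sham. Again 4 of 10 were called higher, where no member was and 0.873% of all genes were called in either direction. In Tg-TAC minus Tg-Sham none of the 10 macrophage markers was called. There, 4 of 6 fibroblast, 1 of 3 T and NK cell, 1 of 4 B cell and 1 of 4 neutrophil markers were called higher. Of 8 cardiomyocyte markers, 5 were called lower. Of all genes, 7.91% were called higher in that comparison and 8.77% lower. The part of these cell markers in the members' differences was not tested.

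To ask whether MitoQ changed the members after TAC, the MitoQ groups were set against vehicle. All MitoQ libraries carry the name number 20 or 21, and among the vehicle libraries only Con-TAC 6 does, so the meaning of that number and MitoQ cannot be told apart. In Tg-TAC-MQ minus Tg-TAC, 1 member rose (9.89% of all genes were called higher) and 3 fell (7.44% were called lower), together 4 where 17.3% of all genes were called in either direction. Of 34 differences 7 were positive, with a median of -0.35, and 10 had an unadjusted p under 0.05.

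Trim25 had 1283, 1334 and 1365 normalized counts in Tg-TAC-MQ, against 909.0, 986.3 and 1053 in Tg-TAC. Every MitoQ heart lay above every vehicle heart (log2 0.43, SE 0.078, limma adjusted p = 0.000499), and the call was kept without any single library. Ifi27l2a had 118.4, 162.7 and 212.2 in Tg-TAC-MQ, against 102.9, 471.0 and 1893 in Tg-TAC. The MitoQ hearts were alike, and all vehicle hearts but Tg-TAC 6 lay above them (log2 -1.47, SE 0.43, limma adjusted p = 0.0183). The call was lost without Tg-TAC 4, where the adjusted p was 0.0681.

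Ifit3 had 119.4, 165.5 and 236.9 in Tg-TAC-MQ, against 165.3, 426.5 and 817.4 in Tg-TAC, where Tg-TAC 6 alone overlapped with the MitoQ hearts (log2 -1.17, SE 0.42, limma adjusted p = 0.0488). Oas3 had 0, 6.23 and 14.6 in Tg-TAC-MQ, against 14.1, 19.0 and 53.9 in Tg-TAC, at low counts (log2 -1.98, SE 0.68, limma adjusted p = 0.0409). The call of Ifit3 was lost without any one of 10 of the 12 libraries, with log2 differences there of -1.26 to -0.95, and that of Oas3 without any one of 7 of the 12, with -2.03 to -1.46. Without Tg-TAC 4 no member was called lower. Without Tg-TAC 6, 7 members were called lower (12.5% of all genes), and without Tg-TAC 3, 5 were (6.71% of all genes). Without Con-TAC 6 and Con-Sham 6, which enter only through the shared spread, 11 members were called lower (8.30% of all genes), and Parp14, an ADP-ribosyltransferase, was called higher beside Trim25. The 11 were Irf7, Zbp1, Ifit1, Ifit3, Oas3, Oasl1, Oasl2, Isg15, Usp18, Bst2 and Ifi27l2a. Con-TAC 6 and Con-Sham 6 were chosen for high member values, so that count cannot be set against the share of all genes. Cell markers moved with this comparison, with 1 of 10 macrophage and 2 of 6 fibroblast markers called lower and 2 of 8 cardiomyocyte markers called higher. Of all genes, 7.44% were called lower there and 9.89% higher. Rn18s-rs5 took 0.591 to 1.33% of reads in Tg-TAC-MQ, against 2.38 to 11.8% in Tg-TAC, without overlap, and the median share of mitochondrial-genome reads was 20.6% in Tg-TAC-MQ, against 17.6% in Tg-TAC. The part of the markers and of these shares was not tested.

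**Figure D5:**
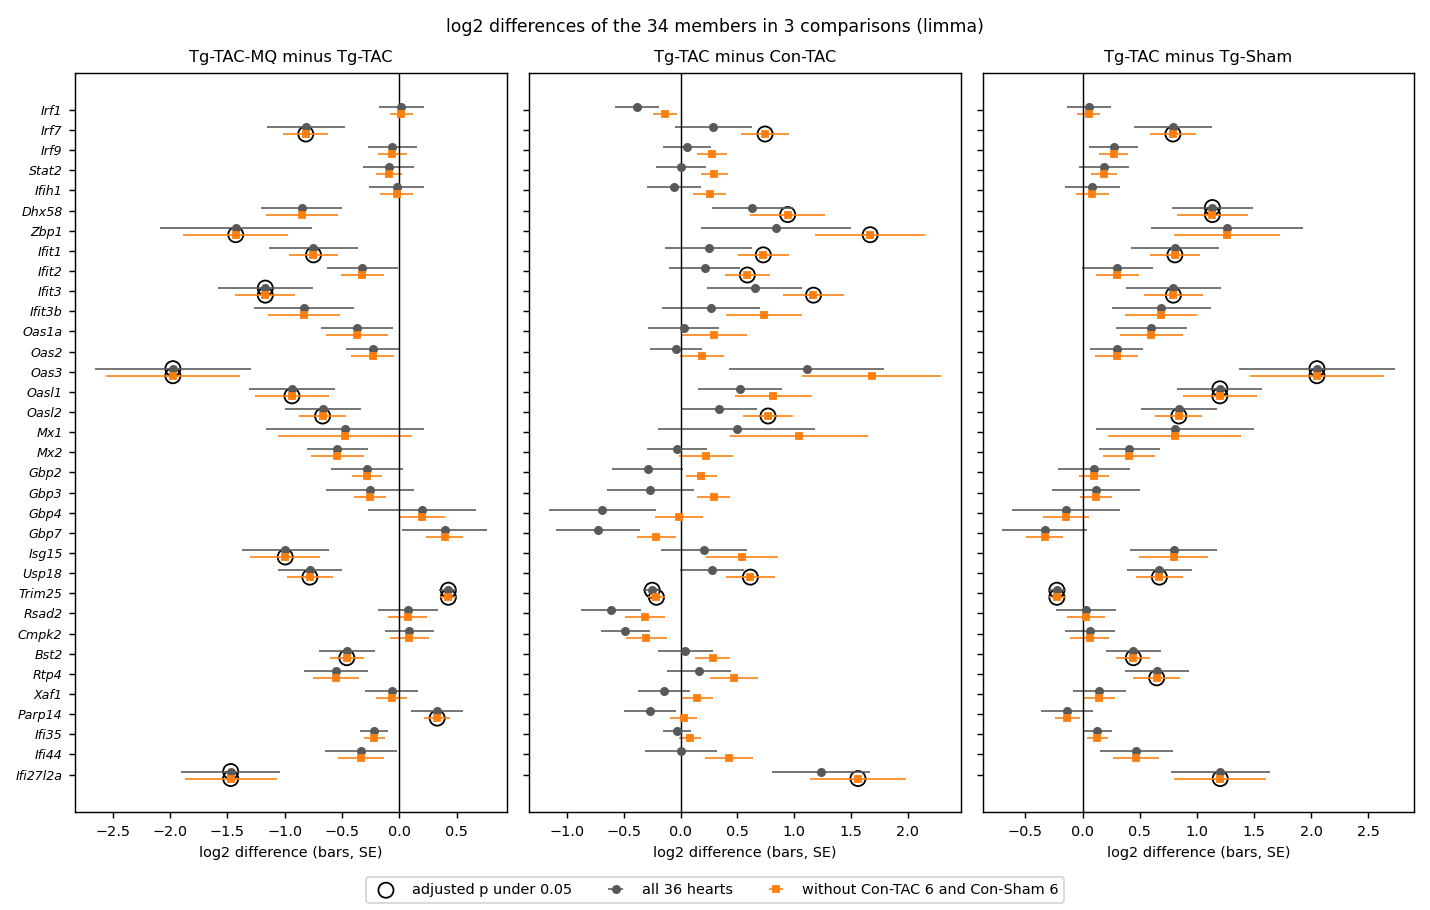
Points are log2 differences with SE bars of the 34 members in 3 comparisons, from limma over all 36 hearts (grey) and without Con-TAC 6 and Con-Sham 6 (orange), and rings mark an adjusted p under 0.05. With all hearts, and then without those 2, 4 and 13 members are ringed in Tg-TAC-MQ minus Tg-TAC (left). In Tg-TAC minus Con-TAC (middle) 1 and 10 are ringed, and in Tg-TAC minus Tg-Sham (right) 4 and 12. The 2 hearts left out were chosen for their high member values.

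In control hearts, Con-TAC-MQ minus Con-TAC called none of the 34 members with limma (3.23% of all genes), edgeR or DESeq2, and 3 had an unadjusted p under 0.05. With Con-TAC 6, 6 of 34 differences were positive, with a median of -0.16. Without Con-TAC 6 and Con-Sham 6, 27 of 34 were positive, with a median of 0.22, and Trim25 was called higher (10.3% of all genes were called in either direction). Trim25 had 1322, 1361 and 1452 in Con-TAC-MQ, against 1008, 1136 and 1452 in Con-TAC, with overlap (log2 0.23, SE 0.078, limma adjusted p = 0.0968), and it was also called without Con-TAC 1 alone and without Con-TAC 6 alone. The interaction of genotype and MitoQ called no member with limma (0% of all genes), edgeR or DESeq2, and 1 had an unadjusted p under 0.05. For Oas3 it was -1.99, with a 95% confidence interval from -3.95 to -0.04 and an adjusted p of 0.583, and without Con-TAC 6 and Con-Sham 6 it was -2.56 (SE 0.85, limma adjusted p = 0.229). Between the MitoQ groups, Tg-TAC-MQ minus Con-TAC-MQ called none of the 34 with limma (0.0737% of all genes), edgeR or DESeq2, and none had an unadjusted p under 0.05. Ifit1 had 106.8, 129.4 and 227.9 in Tg-TAC-MQ, against 144.3, 165.2 and 307.5 in Con-TAC-MQ, with overlap. The comparisons share the Tg-TAC and Con-TAC hearts and are not independent of each other.

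The rest of the pathway was taken from 6 lists. Of a list of 10 genes of receptors and their signalling, 1 rose and 2 fell in Tg-TAC minus Tg-Sham, where 7.91% and 8.77% of all genes did. Ifngr1, a chain of the interferon gamma receptor, averaged 2092 ± 512.3 in Tg-TAC and 1599 ± 137.9 in Tg-Sham (SD, n = 6 each; limma adjusted p = 0.0349), and Jak1 averaged 3930 ± 357.5 in Tg-TAC and 4619 ± 237.4 in Tg-Sham (limma adjusted p = 0.0378). Il10rb, a chain shared by the receptors of interleukin 10 and interferon lambda, fell as well. In Tg-TAC minus Con-TAC, Jak1 and Il10rb were the 2 called lower of the list (3.29% of all genes). In Tg-TAC-MQ minus Tg-TAC, Ifngr1 was the 1 called lower (7.44% of all genes). Ifnar1, a chain of the type I receptor, was the 1 called member of the list in Con-TAC-MQ minus Con-TAC, where it was higher. There, 3.23% of all genes were called in either direction.

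Of 18 sensor and adaptor genes, 2 were called higher in Tg-Sham minus Con-Sham, where 0.873% of all genes were called in either direction. Tlr7, which senses RNA in endosomes, averaged 177.8 ± 22.0 in Tg-Sham and 93.2 ± 27.3 in Con-Sham (SD, n = 6 each; limma adjusted p = 0.0288), and the groups did not overlap. Unc93b1, which carries Tlr7 to the endosome, averaged 746.3 ± 91.5 in Tg-Sham and 473.8 ± 72.8 in Con-Sham (limma adjusted p = 0.0340), also without overlap. Unc93b1 and Irf5, a transcription factor below these receptors, were the 2 called higher in Tg-TAC minus Con-TAC (3.19% of all genes). Mavs, the adaptor of the cytosolic RNA sensors, was the 1 called in Tg-TAC-MQ minus Tg-TAC, where it was higher (9.89% of all genes).

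Of 9 tested genes that restrain the response, Socs3 was called higher in Tg-TAC minus Con-TAC (3.19% of all genes). Ptpn2, a phosphatase of the Jak kinases, was called lower in Tg-TAC-MQ minus Tg-TAC (7.44% of all genes). Of 55 further interferon-stimulated genes, 7 rose and 1 fell in Tg-TAC minus Tg-Sham, where 7.91% and 8.77% of all genes did. In Tg-TAC-MQ minus Tg-TAC, 1 rose and 6 fell, where 9.89% and 7.44% of all genes did. Slfn2, which guards quiescence of immune cells, averaged 303.8 ± 126.7 in Tg-TAC and 150.1 ± 25.4 in Tg-Sham, without overlap (SD, n = 6 each; limma adjusted p = 0.00799). Its mean in Tg-TAC-MQ was 172.5 ± 12.9 (limma adjusted p = 0.0319 against Tg-TAC). Ifit1bl2, an Ifit1-like gene, fell in Tg-TAC, with 102.8 ± 27.6 against 179.5 ± 37.5 in Tg-Sham (limma adjusted p = 0.00250), and was 167.9 ± 15.1 in Tg-TAC-MQ (limma adjusted p = 0.00347 against Tg-TAC). Of the 25 interferon gamma genes, 1 was called in these comparisons, Cxcl9, lower in Tg-TAC than in Con-TAC (3.29% of all genes). It averaged 73.8 ± 32.5 in Tg-TAC and 238.5 ± 287.2 in Con-TAC (SD, n = 6 each; log2 -1.28, SE 0.37, limma adjusted p = 0.0370), where Con-TAC 6 had 823.9. Without Con-TAC 6 and Con-Sham 6 the difference was -0.82 (SE 0.26, limma adjusted p = 0.0274), still called lower. The ligand list held 1 listed gene, Ifng, which was too low to test.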

How the data were processed

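RNA from snap-frozen whole hearts was extracted with the RNeasy Fibrous Tissue Mini kit, and libraries were NEB Ultra II Directional, per the labels' protocols. The submitters' processing notes name Trim Galore, STAR and the build mm39. Neither versions nor the tools used for counting and normalizing are named in the sources used here. Values in the deposited table are signals, namely read counts normalized by the authors. In every library 100% of these values were whole reads within 0.01 read after scaling, so read counts were recovered, and no column was left unused. Testing was limited to the 16275 genes that reached 10 in 6 or more libraries and was done with limma 3.58.1 in R 4.3.3 on log2(value + 1), with 1 mean per group over 36 libraries, 30 residual degrees of freedom, a trend and robust moderation, two-sided, with Benjamini-Hochberg adjustment over all genes tested and a threshold of 0.05. Fold changes on this scale understate the change of low genes. The fit was tested on simulated data. Alternatives changed the pseudocount (0.5, 10), the filter (none, 50), the scaling (TMM, or an equal sum of nuclear genes) or the design (array weights, replicate block, name number class as covariate). Others restricted the libraries (those compared, those named 7 to 14, each left out in turn, 5 that stand apart left out) or used edgeR 4.0.16 or DESeq2 1.42.0 on recovered reads. Fits without Con-TAC 6 and Con-Sham 6, with or without Tg-TAC 4, were chosen after seeing the data. The replicates are separate mice, per the series' design text. The members and all lists were chosen with earlier results of these data known. Members may all be named, with values for those called, and pathway lists give up to 3 called genes per list and comparison.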

Additional observations from a re-analysis of the deposited data

Results flagged for a closer look

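Single far values were looked for in each group of 6 hearts on the scale of log2(value + 1), not on the normalized counts. The highest or lowest value was set apart when its gap to the next was more than 0.625 of the group's range (Dixon's 95% critical value). For normally distributed values, chance alone sets apart about 1 in 20 groups. Of the 204 pairs of a member and a group 45 were set apart, of which 40 were the highest value of 1 of 2 hearts. The members share the same hearts, so the pairs are not independent and their number cannot be set against that rate. The rate over all tested genes is not given.

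Con-TAC 6 was set apart as the highest heart in 23 members. The share of the range was 0.93 for Gbp4 and Gbp7, 0.92 for Xaf1, 0.87 for Irf7 and Oas1a, 0.86 for Zbp1 and Gbp3, 0.85 for Isg15 and Usp18 and 0.84 for Gbp2. It was 0.79 for Ifit1, 0.78 for Stat2, 0.77 for Oasl2 and Parp14, 0.76 for Irf9, 0.75 for Ifih1, 0.72 for Irf1, 0.71 for Ifit3, 0.70 for Ifi44 and Ifi27l2a, 0.69 for Ifit2, 0.68 for Rsad2 and 0.66 for Rtp4.

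Con-Sham 6 was set apart as the highest heart in 17 members, with 0.87 for Stat2, 0.80 for Bst2, 0.78 for Ifit1, 0.77 for Parp14, 0.76 for Gbp3 and Ifi35, 0.74 for Irf1 and Cmpk2 and 0.73 for Gbp4. The share was 0.71 for Ifit2 and Ifit3b, 0.69 for Ifih1, 0.68 for Ifit3 and Gbp2, 0.66 for Irf9 and Mx2 and 0.64 for Irf7.

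Elsewhere 5 single values were set apart. Ifit1 was highest in Con-TAC-MQ 4 (0.77), Ifi35 was highest in Tg-TAC 4 (0.79), Dhx58 was highest in Tg-TAC-MQ 3 (0.65), and Ifit2 was lowest in Tg-TAC 6 (0.65) and in Tg-Sham 3 (0.68).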

How the results depend on the processing

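The counts of members called changed with the hearts that entered, and no named call changed its direction. The cause was not tested for any of the changes below. Shares of all genes called are given above for only some of these settings. Where none is given, a count alone does not show whether a change was particular to the members.

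In Tg-TAC minus Tg-Sham, 3 members were called higher with limma, 5 with DESeq2, 6 with the name number class as a covariate, 7 without Con-TAC 6, Con-Sham 6 and Tg-TAC 4, 11 with array weights or without Con-TAC 6 and Con-Sham 6, 12 without the 5 libraries that stand apart (Tg-TAC 4 and 6, Con-TAC-MQ 5, Con-TAC 6, Con-Sham 2) and 15 in the libraries named 7 to 14. Leaving out single libraries gave 0 to 8. The 1 called lower became 0 without a filter, with the same total outside the mitochondrial genome, with the class covariate, in the libraries named 7 to 14, in the libraries compared, without the 5 libraries and without the 3, and 0 to 1 without single libraries.

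In Tg-TAC minus Con-TAC, the 0 called higher became 1 with edgeR and DESeq2, 2 without the 3 libraries, 3 with array weights, 6 with the class covariate, 8 without the 5 libraries, 9 without Con-TAC 6 and Con-Sham 6, and 15 in the libraries named 7 to 14, with 0 to 6 without single libraries. The 1 called lower became 3 with DESeq2 and 0 without a filter, with the same total outside the mitochondrial genome, with array weights, in the libraries named 7 to 14, in the libraries compared, without the 5 and without the 3 libraries, with 0 to 1 without single libraries.

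In Tg-TAC-MQ minus Tg-TAC, the 3 called lower became 1 without a filter, 6 with DESeq2, in the libraries compared and without the 3 libraries, 9 without the 5, 10 with array weights, 11 without Con-TAC 6 and Con-Sham 6 and 31 with the class covariate, with 0 to 7 without single libraries. The 1 called higher became 2 without Con-TAC 6 and Con-Sham 6, 3 without the 3 libraries and 0 with the class covariate. In Con-TAC-MQ minus Con-TAC, 21 members were called lower with the class covariate, and 1 was called higher with the same total outside the mitochondrial genome, with array weights, without the 5 libraries and without Con-TAC 6 and Con-Sham 6, and 2 without the 3, with 0 to 1 without single libraries. In that covariate fit Con-TAC 6 is by construction the only vehicle library of the MitoQ libraries' class. The share of all genes called in that fit is not given, so its counts cannot be set against a background.

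In Con-TAC minus Con-Sham, 1 member was called higher with DESeq2 and without the 3 libraries, 0 to 1 without single libraries, and 1 lower with array weights. In Tg-Sham minus Con-Sham 1 was called higher without the 3 libraries. In the interaction of genotype and MitoQ 5 were called lower without the 5 libraries (Irf7, Dhx58, Ifit3, Oasl2 and Ifi27l2a).

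The replicate block left 3 members higher and 1 lower in Tg-TAC minus Tg-Sham, and it changed no other count. Deviations of same-numbered libraries correlated between -0.483 and 0.311, and these values alone do not show whether the replicate numbers mark a pairing. Counts of Oas3, Mx1 and Zbp1 were low, which limits how small a change could be seen. The sources used here do not say whether the name numbers mark a batch.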
